A study of Mus musculus with 3 samples.

Results

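Retinal cells of rd10 mice given vehicle were compared with those of wild-type (WT) mice separately inside each class of retinal cell, to see which transcript changes were held by 1 class and which were shared by many. Every cluster of the deposited cell annotation that held 50 or more cells in both libraries was taken. This gave 11 of the 21 deposited clusters, with 3900 WT cells and 5652 rd10-vehicle cells, or 9552 of the 10430 cells of both libraries and of the 15242 cells of the series. Each group was a single-cell 10x Genomics library made from 1 retina of each of 4 pooled mice, according to the labels. The study's methods give fewer retinas for the rd10 groups than the labels do, so the number of rd10 mice is in doubt. With 1 library per group there was no replicate and no test, and every interval given is an exact 95% interval that covers counting error only, not the difference between mice. The rd10 mice carried the Rd10 genotype and the WT mice did not, and the label of the rd10 library calls it female. All mice were C57BL/6J, were 8 weeks old, had been kept in darkness throughout life and ate the same base chow. Another library came from rd10 mice that took tamsulosin, metoprolol and bromocriptine (TMB) with this chow, and its levels are given beside the others where they help, with no comparison drawn.

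The rd10 allele is a point mutation in Pde6b, the gene for the beta subunit of the phosphodiesterase that breaks down cyclic GMP in the light response of rods. Rods that carry it die first and cones follow, and rearing in darkness slows the loss. Müller glia, which span the retina and serve its neurons, answer photoreceptor damage by gliosis: they raise intermediate filament, acute phase and complement genes, in part through the transcription factor STAT3, whose signalling SOCS3 inhibits. Rod bipolar cells take the signal of the rods, cone bipolar cells that of the cones, and amacrine cells inhibit both pathways.

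The clusters were named from marker genes. Cluster 0 was Müller glia-like (MG-like), cluster 1 rod-like, cluster 2 rod bipolar cell-like (RBC-like), cluster 3 ON cone bipolar-like and cluster 4 cone-like. Clusters 7 and 8 were OFF cone bipolar-like, cluster 9 was amacrine-like and cluster 11 endothelial-like. Clusters 6 and 10 held 7 and 6 enriched amacrine markers, but none of these was among their 10 leading genes, so they were left unnamed. All 12 Müller glia markers, 10 of 10 rod markers, 12 of 12 cone markers and 9 of 9 endothelial markers were enriched in the clusters that bear those names.

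The libraries differed in ways that touch every result. The WT library held 4478 cells and 18882951 unique molecular identifiers (UMIs), and the rd10-vehicle library 5952 cells and 37002532 UMIs, with 8 cell barcodes in common. The MG-like cluster made up 530 WT and 2492 rd10-vehicle cells, whereas the rod-like cluster made up 1180 and 556. Pde6b was read at 1746 CPM (UMIs scaled to a total of 1000000 in each cluster and library) in WT and 1477 CPM in rd10-vehicle rod-like cells. These 3′ tag counts do not read the point mutation, so the genotype label could not be checked from them. The WT library held cells of both sexes: the Y-linked Ddx3y had a UMI in 70 of 405 WT RBC-like cells and in 0 of 729 rd10-vehicle RBC-like cells, and Xist had one in 210 and 724 of them. The 6 sex-linked genes were therefore left out of all counts, and the counts from those WT cells that matched the rd10-vehicle cells in these transcripts are given at the end.

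A gene was counted as measured in a cluster where 30 or more UMIs were expected in each library, and as called where its level differed by at least 2-fold and the interval of the ratio excluded 1. In most classes few genes passed, whose shares of the measured genes are given in percent. In the MG-like cluster 273 of 9162 measured genes were higher in rd10-vehicle (2.98%) and 81 were lower (0.884%). In the rod-like cluster 70 of 4526 were higher (1.55%) and 32 lower (0.707%), and in the cone-like cluster 45 of 5915 were higher (0.761%) and 24 lower (0.406%). The RBC-like cluster had 50 of 7054 genes higher (0.709%) and 16 lower (0.227%), and the ON cone bipolar-like cluster had 15 of 5748 higher (0.261%) and 55 lower (0.957%). Of the OFF cone bipolar-like clusters, cluster 7 had 13 of 2850 genes higher (0.456%) and 7 lower (0.246%), and cluster 8 had 17 of 3489 higher (0.487%) and 8 lower (0.229%). The amacrine-like cluster had 15 of 1087 higher (1.38%) and 19 lower (1.75%).

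The endothelial-like cluster and the unnamed clusters had most of their calls downward. The endothelial-like cluster had 97 of 6486 genes higher (1.5%) and 306 lower (4.72%), cluster 6 had 11 of 4165 higher (0.264%) and 119 lower (2.86%), and cluster 10 had 58 of 2317 higher (2.5%) and 116 lower (5.01%). The median log2 ratio over all measured genes lay between -0.04 and 0.04 in all 11 clusters. The clusters were not equally deep. With every cluster thinned to 188300 UMIs in each library, the calls higher and lower were 32 and 15 in the MG-like, 17 and 7 in the rod-like, 8 and 8 in the cone-like and 1 and 3 in the RBC-like cluster. At that depth cluster 10, with 40 and 41, and the amacrine-like cluster, with 33 and 18, had the most calls.

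**Figure D1:**
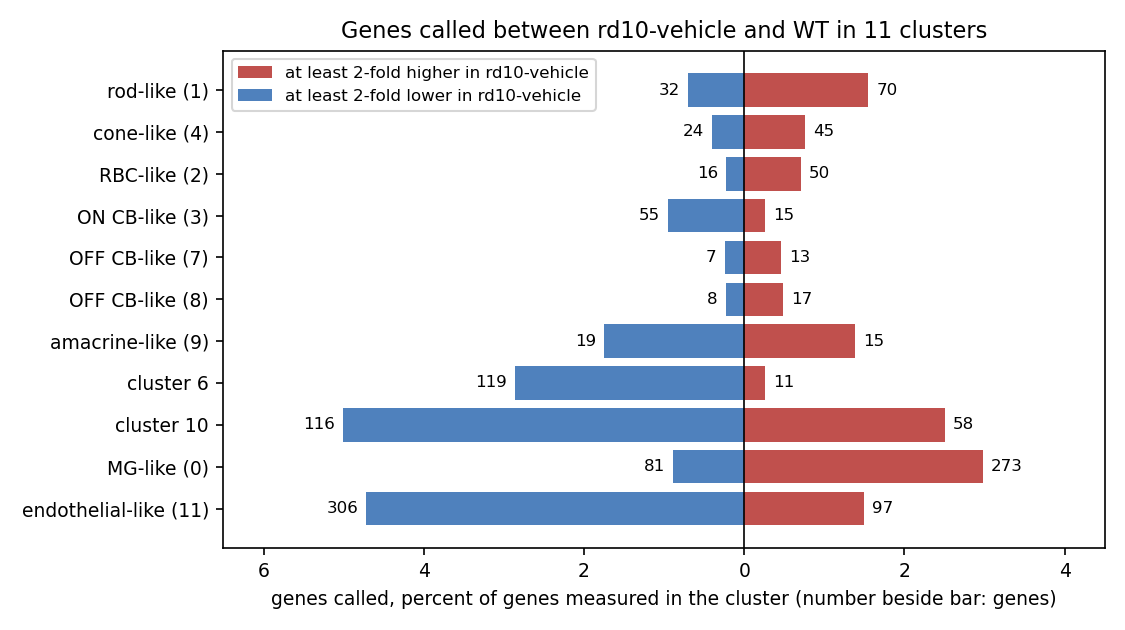
Percent of the genes measured in each of the 11 clusters (horizontal axis) that were at least 2-fold higher (red, right) or lower (blue, left) in rd10-vehicle than in WT, with the number of genes beside each bar. The MG-like cluster had the most genes higher, 273, and the endothelial-like cluster the most lower, 306.

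At the 2-fold line, most of the called genes that 5 or more clusters measured were called in few of them. Of 10841 genes measured in at least 1 cluster, 1145 were called somewhere, and 567 of those were measured in fewer than 5 clusters, so that sharing could not be read for them. Of the 5036 genes measured in 5 or more clusters, 578 were called. Of these, 111 were higher in 1 cluster alone, 16 in 2, 9 in 3, 2 in 4, 3 in 5 and 1 in 8. Downward, 341 were lower in 1 cluster alone, 42 in 2, 9 in 3, 3 in 4 and 5 in 5 to 9 clusters. The endothelial-like cluster called 277 genes of this group lower. A further 36 were higher in some clusters and lower in others. No gene without a call the other way was called in more than 9 clusters.

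Genes called the same way in 50% or more of at least 5 measuring clusters, and the opposite way in none, were taken as shared. There were 8 higher and 8 lower. A gene that is low in 1 library could count as measured through the other library alone, so the number of calling clusters is a description. With WT cells limited to those that matched in the sex-linked transcripts, 8 genes were shared upward but only 5 of them in common, and Cebpd, Frmpd1 and Nr4a1 were not among them. With cells of at most 10% mitochondrial UMIs, 3 of the 8 remained, namely Apoe, Frmpd1 and H2-D1. Apoe, the lipid carrier that Müller glia make in the largest amounts of the classes compared here, was the widest: it was higher in 8 of 10 clusters. It rose from 72.9 to 325.3 CPM in rod-like cells, from 62.5 to 219.1 CPM in cone-like cells and from 26.0 to 176.6 CPM in RBC-like cells. In the MG-like cluster itself Apoe was at 18620 CPM in WT and 24580 CPM in rd10-vehicle, a log2 ratio of 0.40 that is below the 2-fold line. The neuronal levels were thus at most 1.38% of the MG-like level in the rd10-vehicle library, and 0.139% to 0.391% in WT outside the amacrine-like cluster for the photoreceptor, RBC-like and cone bipolar-like clusters. The other Müller markers were summed without Apoe and Clu, which are both on that list. Their log2 ratio was -0.48 in MG-like and -0.28 in endothelial-like cells, -0.09 in cluster 6 with an interval that includes 0, and from 0.44 in cluster 7 to 1.71 in cluster 10 in the other 8 clusters, with 0.58 in rod-like, 1.504 in cone-like and 1.46 in RBC-like cells. The part of Müller glia transcripts in the rise of Apoe was not tested.

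Cebpd, a transcription factor of the acute phase response, was called higher in 5 clusters. The rod-like, cone-like and RBC-like clusters, with 30, 0 and 6 WT UMIs, counted as measured through rd10-vehicle alone. In MG-like cells it rose from 1404 to 3359 CPM (log2 ratio 1.26, interval 1.22 to 1.30) and in endothelial-like cells from 260.0 to 655.6 CPM. Neurons started far lower. In rod-like cells 30 UMIs in 13 of 1180 WT cells became 358 UMIs in 140 of 556 rd10-vehicle cells, or 16.7 and 416 CPM (log2 ratio 4.60, interval 4.10 to 5.23). In cone-like cells no UMI was seen in WT and 122 were seen in 90 rd10-vehicle cells (47.6 CPM), a log2 ratio of at least 4.498 against a floor of 3 counts. RBC-like cells went from 3.05 to 30.6 CPM. If every Apoe UMI in a neuronal cluster had come from Müller glia and had brought Cebpd with it in the MG-like ratio, Cebpd would stand at 44.5 CPM in rod-like, 29.9 CPM in cone-like and 24.1 CPM in RBC-like cells. The observed levels were 9.36, 1.59 and 1.27 times as high. In WT the rod-like level was already 3.04 times this share and the RBC-like level 1.56 times. The part of Müller glia transcripts in the calls of Cebpd was not tested. In the TMB library Cebpd was at 174.9 CPM in rod-like and 22.1 CPM in cone-like cells.

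Clu, an extracellular chaperone, was higher in 5 of 9 clusters, from 28.4 to 162.7 CPM in rod-like and from 21.9 to 115.1 CPM in RBC-like cells. In endothelial-like cells it was at 52.3 and 48.2 CPM. H2-D1, a classical MHC class I heavy chain, was higher in 5 of 6 clusters. It went from 56.6 to 195.3 CPM in MG-like, from 63.2 to 189.5 CPM in cone-like and from 133.9 to 302.7 CPM in amacrine-like cells, and was at 604.5 and 930.0 CPM in endothelial-like cells, which missed the 2-fold line. Cryab, the small heat shock protein alpha B crystallin, was higher in 4 of 5 clusters. It stood at 3.05 and 56.2 CPM in RBC-like cells, 5.61 and 49.5 CPM in cone-like cells and 1154 and 2217 CPM in MG-like cells. Cryab is also a lens gene. The rd10-vehicle library held 18 lens-like cells and the WT library 0, and the lens gene Cryaa was seen beside Cryab in the neuronal clusters. There were 3.67 Cryab UMIs per Cryaa UMI in rd10-vehicle RBC-like cells and 3.53 in ON cone bipolar-like cells, against 7.28 in the lens-like cells and 234 in MG-like cells, and the part of lens transcripts in the shared rise was not tested.

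The other shared higher genes were narrower. Nr4a1, an immediate early nuclear receptor, rose in MG-like cells from 81.3 to 252.9 CPM, in cone-like cells from 72.3 to 184.0 CPM and in endothelial-like cells from 453.4 to 1016 CPM, and stood at 26.0 and 22.6 CPM in RBC-like cells. Pde6h, the inhibitory subunit of the cone phosphodiesterase, was called in MG-like, RBC-like and ON cone bipolar-like cells, at 27.0 and 58.5 CPM in RBC-like cells, while in cone-like cells, where it belongs, it was at 13960 and 14480 CPM. Frmpd1, a FERM and PDZ domain protein, changed most in cone-like cells: 3 UMIs in 3 WT cone-like cells against 132 UMIs in 111 rd10-vehicle cone-like cells, or 2.11 and 51.5 CPM (log2 ratio 4.21, interval 3.03 to 6.91). It was at 50.2 CPM in TMB cone-like cells. Its level in RBC-like cells was 140.5 and 174.3 CPM.

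**Figure D2:**
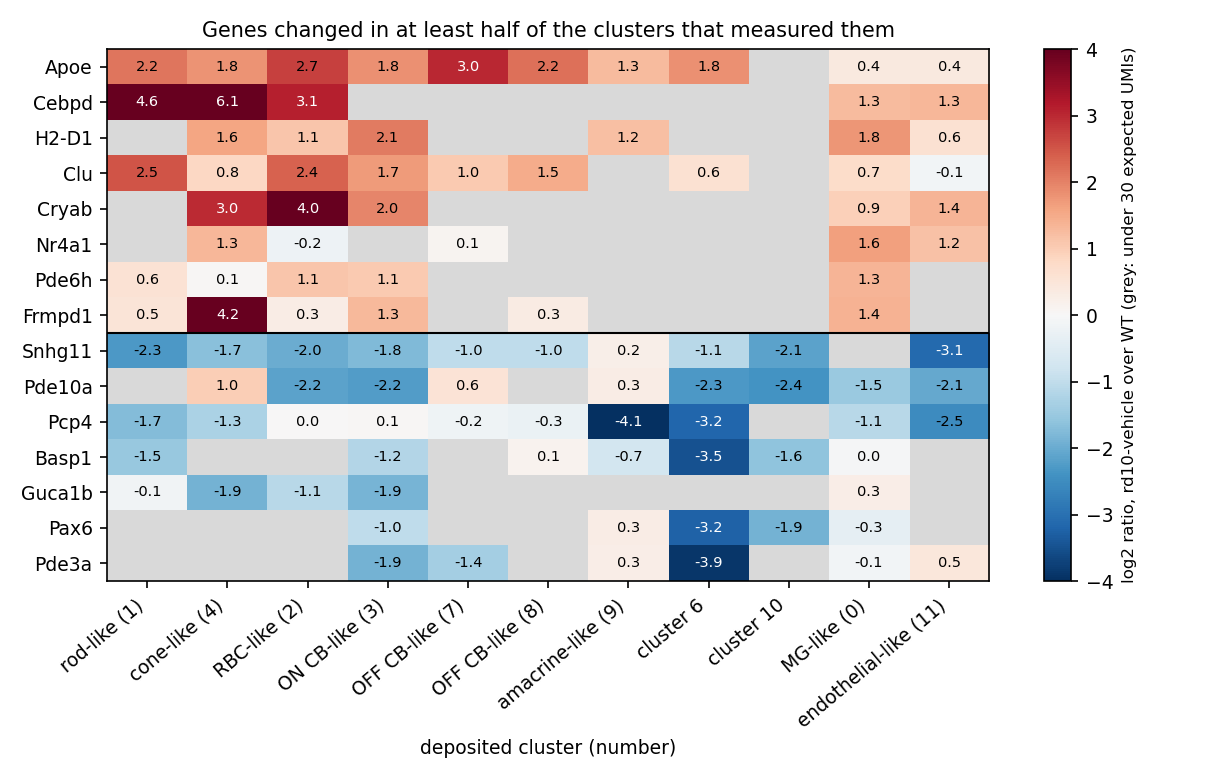
Log2 ratio of rd10-vehicle to WT for the 8 shared higher genes (top) and 7 of the 8 shared lower genes (bottom) in each cluster, with red for higher and blue for lower in rd10-vehicle and grey where under 30 UMIs were expected in a library. Apoe was above 0 in all 10 clusters that measured it, and Snhg11 was below 0 in 9 of 10.

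Of the shared lower genes, Snhg11, a long non-coding RNA that is abundant in amacrine cells, was lower in 9 of 10 clusters. It fell from 67.9 to 12.8 CPM in rod-like, from 693.4 to 201.5 CPM in ON cone bipolar-like and from 124.6 to 13.9 CPM in endothelial-like cells, but stood at 2644 and 3117 CPM in the amacrine-like cluster. Guca1b, a guanylate cyclase activator of photoreceptors, was at 1913 and 1747 CPM in rod-like cells and fell from 131.9 to 35.1 CPM in cone-like cells. For Snhg11 and Guca1b, less transcript per cell and less free RNA from another class cannot be told apart. The amacrine genes on this list, Pax6 and Snhg11, moved with the number of amacrine-like cells of cluster 5, which held 461 WT cells and 43 rd10-vehicle cells, and whose part was not tested.

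Pde10a and Pcp4 were lower in classes that differ widely in function. Pde10a, a phosphodiesterase of both cyclic nucleotides, was lower in 6 of 9 clusters, from 70.5 to 25.5 CPM in MG-like, from 54.0 to 11.9 CPM in RBC-like and from 113.7 to 23.8 CPM in ON cone bipolar-like cells. In cone-like cells it stood at 47.0 and 94.7 CPM, a log2 ratio of 0.995 with the pseudocount of 1 UMI and so not called higher. With a pseudocount of 0.1 UMI, a median-of-ratios size factor or no mitochondrial and ribosomal protein genes, Pde10a was no longer among the shared genes. Pcp4, a calmodulin-binding peptide, was level where it is most abundant, at 5215 and 5296 CPM in RBC-like cells, and fell from 800.1 to 42.5 CPM in amacrine-like cells, where 119 of 295 WT cells and 4 of 62 rd10-vehicle cells had a UMI. Basp1, a growth cone protein, fell from 322.4 to 27.6 CPM in cluster 6 and was at 578.9 and 562.7 CPM in MG-like cells. Pde3a, a cyclic AMP phosphodiesterase, fell from 343.6 to 21.8 CPM in cluster 6 and from 53.1 to 14.0 CPM in ON cone bipolar-like cells.

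Because a gene with a strong source class can appear at low levels in all others, the same counts were made with only those clusters in which the gene stood at 20% or more of its highest cluster. No gene was then shared upward, and Adarb1, Pde10a and Snhg11 were shared downward. Under this condition A2m, Fgf2, Gadd45b, H2-D1 and Stat3 were each called higher in 3 clusters. A cluster could pass the limit through either library. A2m and Fgf2 in RBC-like, Gadd45b in rod-like, and H2-D1 in MG-like and cone-like cells passed it through rd10-vehicle alone, so these counts support nothing about how widely the genes rose. Of the genes named here, A2m, Stat3, Adarb1 and AC149090.1 were chosen for the text after their values were seen. A2m, a broad protease inhibitor of the acute phase, went from 14.8 to 195.1 CPM in MG-like, from 3.56 to 94.1 CPM in RBC-like and from 41.2 to 107.8 CPM in the OFF cone bipolar-like cells of cluster 8. Stat3 went from 26.1 to 84.8 CPM in rod-like, from 38.2 to 95.6 CPM in RBC-like and from 47.9 to 109.2 CPM in MG-like cells, and was above 0 on the log2 scale in all 9 clusters that measured it (0.08 to 1.69). Downward, Pde10a was called in 6 of 9 clusters, Snhg11 in 5 of 6 and Adarb1 in 3 of 5, while AC149090.1 was called in 5 of 11 and so was not shared.

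Of the 22 genes on a list of gliosis and injury, 15 of the 19 measured in MG-like cells were called higher and none lower, where 2.98% of all measured genes were higher. In rod-like cells 5 were measured and all 5 were called higher (1.55% of all genes), in RBC-like cells 4 of 6 (0.709%), in cone-like cells 2 of 5 (0.761%) and in endothelial-like cells 5 of 11 (1.5%). In ON cone bipolar-like cells 2 were measured and neither was called. A listed gene that was low in WT was measured only where its rd10-vehicle level was high, as were Edn2, Fgf2 and Gadd45b in rod-like cells with 14, 27 and 14 WT UMIs. These counts therefore describe the genes that could be seen and do not show that the list moved in a class.

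Fgf2, a growth factor that injured photoreceptors make, was called higher in 3 neuronal clusters and not in MG-like cells. It went from 15.02 to 163.8 CPM in rod-like cells (27 and 141 UMIs), from 1.53 to 55.8 CPM in RBC-like cells (3 and 146 UMIs) and from 7.72 to 40.5 CPM in cone-like cells (11 and 104 UMIs). In MG-like cells it was at 35.8 and 69.4 CPM, a log2 ratio of 0.94. Set against what the Apoe share of Müller glia transcripts would bring, Fgf2 was 107 times as high in WT and 178 times in rd10-vehicle rod-like cells, 30.6 and 112 times in RBC-like cells and 64.2 and 65.6 times in cone-like cells. The part of Müller glia transcripts in these calls was not tested. In the TMB library Fgf2 was at 105.2 CPM in rod-like, 32.6 CPM in RBC-like and 19.8 CPM in cone-like cells. Edn2, the endothelin that stressed photoreceptors release and a gene chosen after its values were seen, was measured in rod-like cells alone, with 14 WT and 109 rd10-vehicle UMIs (7.79 and 126.6 CPM), and stood at 38.0 CPM in the TMB library. With no count minimum Edn2 was among the genes shared upward. Gadd45b, a stress and growth arrest gene, went from 7.79 to 147.6 CPM in rod-like and from 34.0 to 156.6 CPM in MG-like cells.

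Socs3, the feedback inhibitor of STAT3 signalling, was the listed injury gene with the largest relative change in RBC-like cells: 1 UMI in 405 WT cells and 87 UMIs in 75 of 729 rd10-vehicle cells, or 0.51 and 33.3 CPM (log2 ratio 5.05, interval 3.51 to 11.35). It rose from 279.8 to 1181 CPM in MG-like and from 120.3 to 434.5 CPM in endothelial-like cells, and stood at 51.2 and 83.8 CPM in cone-like cells. The motif TTCNNNGAA, which STAT dimers bind and which reads the same on both strands, was searched in the RefSeq promoters of GRCm38.p6, from 250 bases before to 50 bases after the start that the table gives each gene. It was found in 4 of 20 promoters on the injury list, those of Gfap, Socs3, Ifitm3 and Nupr1, in 4 of 20 on the interferon and MHC list, those of Irf1, Bst2, Psmb8 and Ifi35, and in 8.42% of 13327 promoters in all. Such a match is a description of letters, not a binding site. The 250 bases before that start of Socs3, which lies inside the longest extent of the gene in the RefSeq annotation, on the minus strand at chr11:117969367-117969616, are shown because Socs3 rose in 3 classes, and those of Irf1, chosen after its values were seen, on the plus strand at chr11:53769764-53770013, because Irf1 rose in 1 class alone. The motif is in capitals in both.
Socs3: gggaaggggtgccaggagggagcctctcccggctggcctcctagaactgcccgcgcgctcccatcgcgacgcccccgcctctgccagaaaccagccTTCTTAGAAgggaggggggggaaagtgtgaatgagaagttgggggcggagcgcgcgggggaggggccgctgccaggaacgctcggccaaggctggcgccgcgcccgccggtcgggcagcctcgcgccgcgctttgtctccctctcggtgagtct
Irf1: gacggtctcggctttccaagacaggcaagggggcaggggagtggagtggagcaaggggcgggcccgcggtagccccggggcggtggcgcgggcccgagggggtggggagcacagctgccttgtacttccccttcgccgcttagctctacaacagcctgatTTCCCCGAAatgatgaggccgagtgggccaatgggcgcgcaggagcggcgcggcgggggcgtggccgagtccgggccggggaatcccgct

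Prph and Gap43, genes of axon growth and repair, were raised in RBC-like cells and were named after their values were seen. Prph, the intermediate filament peripherin, had no UMI in 405 WT RBC-like cells and 202 UMIs in 96 of 729 rd10-vehicle cells (77.2 CPM), a log2 ratio of at least 5.66 against a floor of 3 counts. No other cluster measured it. Gap43 went from 3 UMIs to 128 UMIs in these cells, or 1.53 and 48.9 CPM, and in MG-like cells from 52.4 to 114.8 CPM, whereas in cluster 6 it fell from 65.8 to 23.3 CPM. In the TMB library RBC-like cells had 51.1 CPM of Prph and 21.1 CPM of Gap43.

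**Figure D3:**
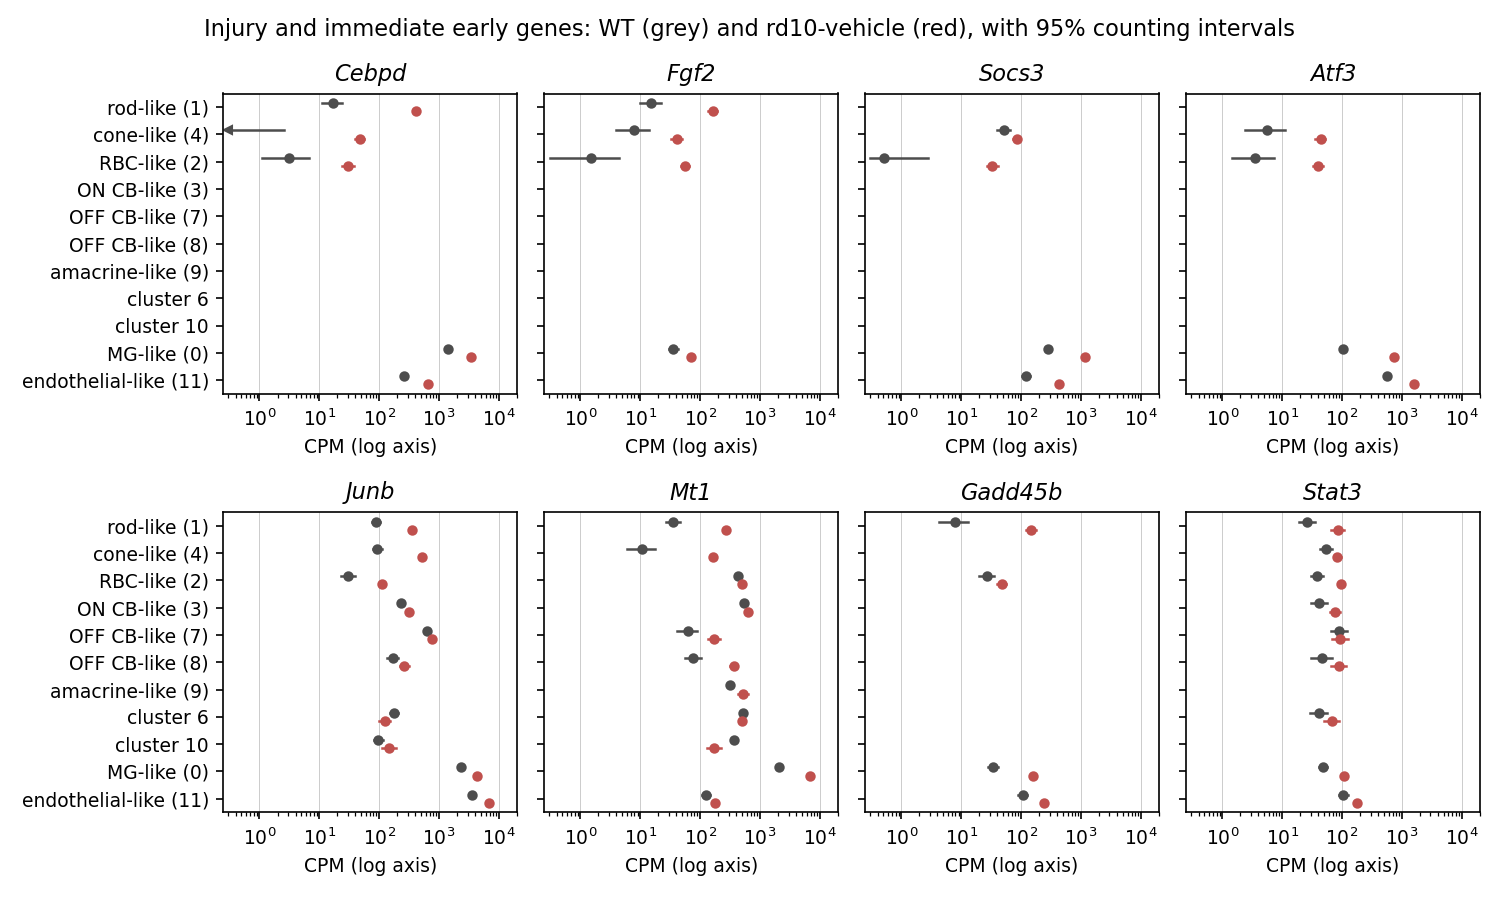
Levels of 8 injury and immediate early genes in each cluster that measured them, in CPM on a log axis, with WT in grey, rd10-vehicle in red and lines for the 95% counting interval (an arrow marks a level of 0). Cebpd, Fgf2 and Atf3 rose in rod-like, cone-like or RBC-like cells by more than 4-fold where they were measured, whereas Junb in the cone bipolar-like clusters lay within 2-fold of WT.

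Immediate early genes, which neurons and glia switch on within minutes of a stimulus or of dissociation, were counted in the same way and with the same limit on which genes are measured. Of 22 listed, 5 of 10 measured rose in rod-like cells (median log2 ratio 1.14, with 1.55% of all genes higher). In RBC-like cells 6 of 13 rose (median 0.92, 0.709% of all genes) and in cone-like cells 8 of 13 (median 1.09, 0.761%). In MG-like cells 9 of 20 rose (median 0.78, 2.98%) and in endothelial-like cells 3 of 18 (median 0.72, 1.5%). None of 9 in ON cone bipolar-like cells (median -0.01), of 10 and 9 in the OFF cone bipolar-like clusters 7 and 8 (medians 0.18 and 0.15) was called. Of all genes 0.261%, 0.456% and 0.487% were higher in these clusters, so no call among so few genes says little by itself. The medians of all genes were within 0.04 of 0 in each. Since which genes are measured differs between clusters, the 9 genes measured in all of these clusters were also set side by side. Their medians were 1.49 in rod-like, 1.26 in RBC-like and 1.06 in cone-like cells, with 5 higher in each, and 0.44 in MG-like, 0.69 in endothelial-like, -0.01 in ON cone bipolar-like and 0.18 and 0.15 in OFF cone bipolar-like cells, with 0 called.

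Junb, a subunit of the AP-1 transcription factor, went from 89.0 to 354.4 CPM in rod-like, from 93.3 to 526.7 CPM in cone-like and from 30.03 to 113.2 CPM in RBC-like cells. It stood at 231.1 and 316.9 CPM in ON cone bipolar-like cells and at 625.5 and 772.4 CPM in cluster 7. Both of these cone bipolar-like clusters thus held more Junb in WT than the rod-like, cone-like and RBC-like cells did. Egr1, chosen after its values were seen, likewise went from 256.4 to 1083 CPM in rod-like cells and was at 591.8 and 459.6 CPM in ON cone bipolar-like cells. Atf3, a stress-induced partner of the Jun proteins, rose in 4 clusters, from 3.56 to 40.1 CPM in RBC-like, from 5.61 to 43.7 CPM in cone-like, from 103.0 to 732.8 CPM in MG-like and from 574.4 to 1592 CPM in endothelial-like cells. The RBC-like and cone-like clusters, with 7 and 8 WT UMIs of Atf3, counted as measured through rd10-vehicle alone. Their levels were 7.62 and 6.68 times what the Apoe share of Müller glia transcripts would bring in rd10-vehicle and 24.8 and 16.3 times in WT, and the part of those transcripts was not tested. In cluster 6, by contrast, none of 9 measured immediate early genes rose and 1 fell (median -0.52), where 0.264% of all genes were higher and 2.86% lower.

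Mt1, a metallothionein that binds zinc and copper, rose in some neurons and not in others. It went from 35.6 to 270.7 CPM in rod-like, from 10.5 to 161.4 CPM in cone-like and from 77.5 to 363.7 CPM in the OFF cone bipolar-like cells of cluster 8. It was at 426.0 and 502.7 CPM in RBC-like and 535.0 and 640.8 CPM in ON cone bipolar-like cells, which held much more of it in WT. In MG-like cells it rose from 2102 to 6966 CPM and in cluster 10 it fell from 365.8 to 171.2 CPM. Mt2, its close paralog, followed in MG-like cells (372.9 and 1814 CPM) and in cone-like cells (3.51 and 42.5 CPM). The Apoe share of Müller glia transcripts would bring 92.2 CPM of Mt1 to rod-like and 62.1 CPM to cone-like cells. The observed levels were 2.94 and 2.6 times as high, and in WT 4.33 and 1.49 times.

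Rod-like and cone-like cells also shared genes that the other neurons did not call, called the other way or did not measure. The following were picked after their values were seen, from the genes called in both. Ptprn, a protein of dense core vesicles, went from 15.02 to 176.6 CPM in rod-like and from 89.1 to 298.2 CPM in cone-like cells, was also called higher in MG-like cells at 2.41 and 14.8 CPM, and fell from 70.3 to 24.7 CPM in cluster 6. These 4 clusters alone measured Ptprn, so the bipolar-like and amacrine-like clusters could not call it. Prdx6, a peroxidase, went from 25.03 to 63.9 CPM in the rod-like and from 27.4 to 57.3 CPM in the cone-like cluster, and stood at 39.7 and 55.8 CPM in RBC-like cells. Scg2, a granin, fell from 74.5 to 24.4 CPM in rod-like cells, had a log2 ratio of -1.80 in cone-like cells and was at 3639 and 3597 CPM in cluster 8. Scg2 and Gria2, an AMPA receptor subunit, are inner retinal transcripts at low levels in photoreceptors, and both were also lower in endothelial-like cells.

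Interferon and MHC genes were called higher in MG-like but not in endothelial-like cells, and the difference was not tested. All 23 genes on the list were measured in both clusters. In MG-like cells 14 rose and none fell (median log2 ratio 1.23, all genes -0.04), where 2.98% of all genes were higher. In endothelial-like cells 0 were called (median 0.38, all genes -0.01), where 1.5% of all genes were higher. There 20 of the 23 were above 0. Genes low in WT MG-like cells, Ifit1 and Irf7 among them, counted as measured there through rd10-vehicle alone. Isg15, a ubiquitin-like antiviral protein, went from 19.9 to 177.1 CPM in MG-like cells and was at 341.7 and 481.1 CPM in endothelial-like cells. Ifit1, which binds viral RNA, went from 6.93 to 68.7 CPM and was at 179.1 and 212.8 CPM. Irf7, a transcription factor of the interferon response, went from 5.72 to 20.6 CPM and was at 112.5 and 174.0 CPM, and Irf1, whose promoter is shown above, went from 27.7 to 97.0 CPM and was at 60.9 and 90.9 CPM. Endothelial-like cells thus held more of these transcripts than MG-like cells in WT, and the classes were closer in rd10-vehicle. Of this list, 3 genes were measured in the cone-like cluster, 3 in the ON cone bipolar-like and 2 in the RBC-like cluster, with 1 higher in each, H2-D1. The immunoproteasome genes Psmb8 and Psmb9 rose in MG-like cells, from 58.1 to 136.5 CPM and from 19.9 to 41.3 CPM.

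Genes that the circadian clock drives had medians below 0 in glia, vessels and photoreceptors, with few calls. For the 7 listed output genes measured in all 8 named clusters other than the amacrine-like one, the median log2 ratio was -1.10 in endothelial-like, -0.84 in MG-like, -0.72 in rod-like and -0.56 in cone-like cells. It was 0.00 in the RBC-like cluster, 0.07 in the ON and 0.22 and -0.17 in the OFF cone bipolar-like clusters. Calls were few, with 1 lower in MG-like, 1 in rod-like, 4 in endothelial-like and 0 in the others. Of all genes 0.884%, 0.707% and 4.72% were lower in the MG-like, rod-like and endothelial-like clusters. Ciart, a repressor of the clock, fell from 149.7 to 20.8 CPM in MG-like cells and was at 24.4 and 22.9 CPM in RBC-like cells. Dbp, a leucine zipper factor, fell from 305.8 to 115.3 CPM in endothelial-like cells and was at 607.7 and 650.7 CPM in RBC-like cells. Bhlhe41, a clock repressor, fell from 55.9 to 5.54 CPM in endothelial-like cells. Dbp and Bhlhe41 had their highest WT levels in the OFF cone bipolar-like cells of cluster 8, at 779.5 and 179.6 CPM, and in endothelial-like cells the synapse genes (median -2.44) and rod genes (median -1.11) were also below 0. The part of neuronal transcripts in the endothelial-like values was not tested. Nr1d1 was at 239.8 and 285.0 CPM in MG-like cells. In the TMB library Ciart was at 69.2 CPM in MG-like cells and Dbp at 314.8 CPM in endothelial-like cells. The hour at which each retina was taken is not given in the labels, and its part in these values was not tested.

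Of 20 listed enzymes of glycolysis, 19 were measured in cone-like cells and 0 were called, where 0.406% of all genes were lower. Of these 19, 1 was above 0, with a median log2 ratio of -0.60 beside -0.04 for all genes. Over the 16 genes measured in all of clusters 0 to 4 the median was -0.62 in cone-like cells, 0.07 in MG-like and 0.04 in rod-like cells, and 0.00 and 0.02 in the RBC-like and ON cone bipolar-like clusters. Pgam1, a mutase of the lower pathway, was at 646.3 CPM in WT and 333.3 CPM in rd10-vehicle cone-like cells (log2 ratio -0.96, interval -1.09 to -0.82), and Pgk1, which makes the first ATP of the pathway, at 360.0 and 234.7 CPM. Rod-like cells had 688.5 and 580.9 CPM of Pgam1. In endothelial-like cells the median was -0.44 and 2 of 15 fell, Pgam1 and Pgk1. The TMB library was at 346.1 CPM of Pgam1 in cone-like cells.

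**Figure D4:**
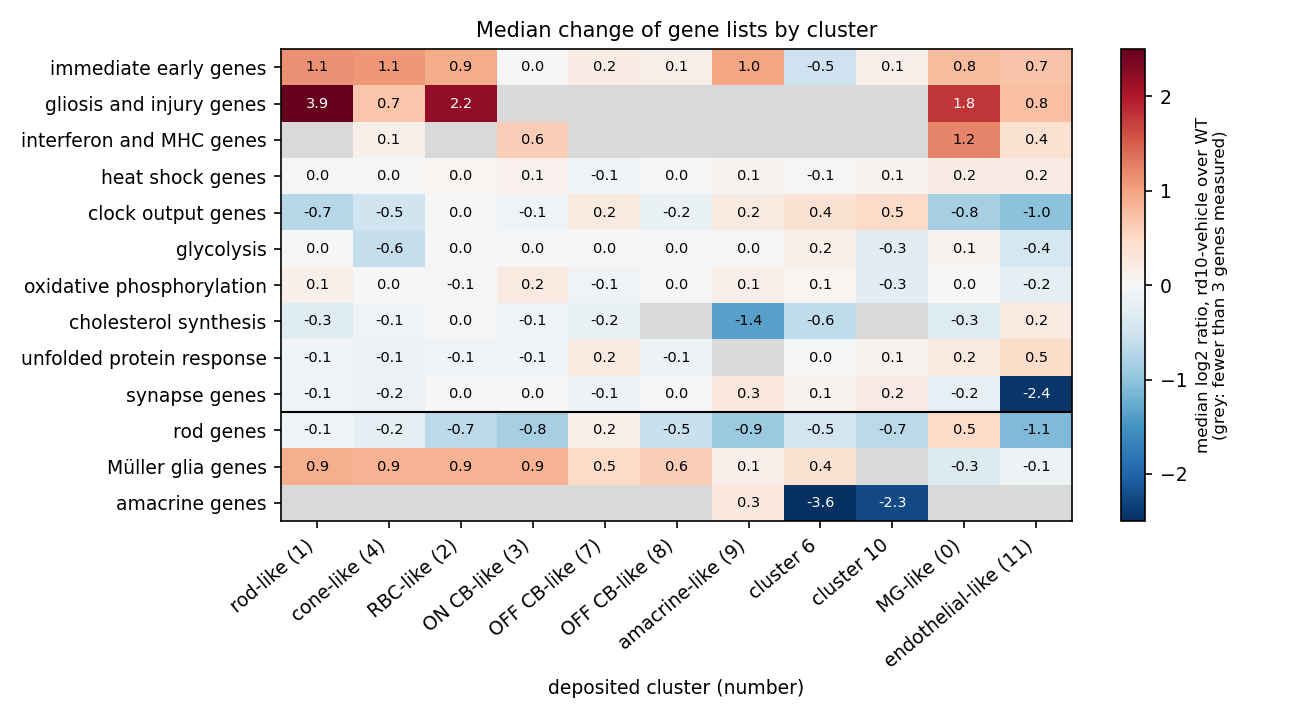
Median log2 ratio of rd10-vehicle to WT over the measured genes of 13 lists in each cluster, with grey where fewer than 3 genes were measured. The immediate early genes were above 0 in rod-like, cone-like, RBC-like, MG-like and endothelial-like cells and near 0 in the cone bipolar-like clusters, and the glycolysis list was at -0.60 in cone-like cells.

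Several programmes of the cell had few or no calls. Of all genes measured in a cluster, between 0.227% and 5.01% were called in 1 direction. Few or no calls in a list therefore say little about it. Of 80 ribosomal protein genes and 85 genes of oxidative phosphorylation, 0 were called in any of the 11 clusters, and their medians lay between -0.13 and 0.24 and between -0.25 and 0.23. The single genes were not evenly spread around 0 in every cluster: the log2 ratio was above 0 for 75 of 80 ribosomal protein genes in MG-like cells, and for 70 of 78 genes of oxidative phosphorylation in ON cone bipolar-like and 12 of 80 in endothelial-like cells. None of the 13 genes encoded by the mitochondrial genome was called, but in endothelial-like cells all 13 were below 0 (median -0.56). The 39 proteasome genes had 2 calls in MG-like cells, those of Psmb8 and Psmb9, and 0 elsewhere. The unfolded protein response had 0 calls in the 10 clusters that measured it, with medians from -0.14 to 0.46. Of 16 heat shock genes at most 2 were called in a cluster, with medians from -0.09 to 0.21. Between 64 and 81 of the 85 genes of oxidative phosphorylation were measured in a cluster. Of the genes of cholesterol synthesis, 0 of 18 were called in MG-like cells, where 2 of 18 were above 0 (median -0.32), and 1 of 12 rose and none fell in endothelial-like cells, where 10 of 12 were above 0 (median 0.23). In the smaller clusters 2 of 8 fell in cluster 6 (median -0.64), 1 of 1 in cluster 10, 0 of 4 and 0 of 2 in the OFF cone bipolar-like clusters, and 2 of 3 in the amacrine-like cluster, where Hmgcs1, the enzyme before the rate-limiting step, fell from 287.3 to 100.9 CPM.

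Genes restricted to a class were those measured in 5 or more clusters, called in clusters of 1 name alone and with an interval clear of all other names. There were 30 higher and 190 lower. Which genes met this definition changed with the settings. Of the 30 and 190, 4 and 22 met it with WT cells limited by sex-linked transcripts, and 0 and 17 with each cell thinned to 1000 UMIs. With cluster sums thinned to the smallest 0 and 8 met it, and with cells of at most 10% mitochondrial UMIs 15 and 44. The limited WT set kept 245 of 530 MG-like and 56 of 295 amacrine-like cells and measured fewer genes, and the part of sex was not tested. The MG-like cluster had 5 higher and 4 lower. Map1b, a microtubule protein of growing processes, rose from 36.8 to 120.0 CPM there and had a median log2 ratio of 0.09 over the 10 clusters that measured it. Ndrg1, a stress-responsive gene of glia, rose from 28.0 to 73.7 CPM. Ddit4, an inhibitor of mTOR complex 1, fell from 267.2 to 96.9 CPM. Most of the glial response lies outside this definition, since 233 of the 273 genes higher in MG-like cells were measured in fewer than 5 clusters, 90 of them in no other cluster.

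The genes of gliosis itself belong to that group and were named after their values were seen. Gfap, the intermediate filament of reactive glia, went from 54 UMIs in 17 of 530 WT MG-like cells to 7534 UMIs in 1067 of 2492 rd10-vehicle cells, or 16.3 and 339.4 CPM (log2 ratio 4.36, interval 4.00 to 4.797). Serpina3n, a serine protease inhibitor, went from 18.7 to 325.0 CPM. Lcn2, a siderophore-binding acute phase protein, went from 39.8 to 545.3 CPM but had UMIs in 653 cells only. Timp1, an inhibitor of metalloproteases, went from 2.11 to 87.1 CPM. Of 7 measured complement genes 4 rose and none fell (median 1.26, all genes -0.04), where 2.98% of all genes were higher. C3 counted as measured through rd10-vehicle alone. C4b and C3 went from 20.2 to 211.0 CPM and from 4.22 to 31.4 CPM, and Serping1, the C1 inhibitor, from 25.3 to 225.1 CPM, with 13.6 and 72.6 CPM in endothelial-like cells. None of Gfap, Serpina3n, Lcn2, Timp1, C3 and C4b was measured in another compared cluster. In the TMB library the MG-like levels were 222.6 CPM of Gfap, 183.6 CPM of Serpina3n, 307.4 CPM of Lcn2, 46.5 CPM of Timp1 and 122.6 CPM of C4b.

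Most genes of the resting functions of the glia were slightly lower. Of 19 measured genes that define Müller glia none rose, 1 fell and 6 were above 0 (median -0.34, all genes -0.04), where 0.884% of all genes were lower. The one that fell was Spc25, from 2461 to 969.5 CPM. Glul, glutamine synthetase, was at 9020 and 6581 CPM (log2 ratio -0.46), Rlbp1, the retinaldehyde-binding protein, at 2825 and 2115 CPM (-0.42), Kcnj10, the inward rectifier that buffers potassium, at 238.3 and 179.3 CPM (-0.41), and Aqp4, the water channel, at 1333 and 1287 CPM (-0.05). Of 10 genes of glial homeostasis 1 fell (median -0.42). Of 8 genes that glucocorticoids drive, 1 rose and 2 fell in MG-like cells (median -0.19), where 2.98% of all genes were higher and 0.884% lower. Tsc22d3 fell from 51.5 to 17.03 CPM, and Sgk1, a kinase that regulates ion channels, rose from 14.2 to 46.2 CPM.

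The rod-like cluster had 10 restricted genes higher and 1 lower. Cd47, the signal that keeps phagocytes away, was measured in all 11 clusters, rose from 85.1 to 228.9 CPM in rod-like cells (log2 ratio 1.43, interval 1.12 to 1.74) and had a median log2 ratio of 0.05 over the clusters. Neurl1a, a ubiquitin ligase, rose from 20.02 to 66.2 CPM, Gpr162 from 25.03 to 77.8 CPM and Rbm17, a splicing factor, from 62.8 to 181.2 CPM. Dst, a linker of the cytoskeleton, fell from 94.5 to 30.2 CPM. Of 20 rod genes 0 were called in rod-like cells (median -0.07), with Gnat1, Nrl and Nr2e3 among them. Of all genes 1.55% were higher and 0.707% lower there, so no call among 20 genes says little by itself. Gnb3, the cone and bipolar transducin beta subunit, rose in rod-like cells from 82.3 to 683.2 CPM (log2 ratio 3.05, interval 2.79 to 3.32) and was above 0 in all 9 clusters that measured it, 0.18 in cone-like cells. The 11 other cone markers summed were at 336.5 and 407.8 CPM in these rod-like cells (log2 ratio 0.28), and Opn1mw, the cone pigment, was at 33.4 and 41.8 CPM.

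The cone-like cluster had no restricted gene. Of its 16 measured cone genes 0 were called higher and 1 lower, and 2 of the 16 were above 0 (median -0.25, all genes -0.04). Of all genes 0.761% were higher and 0.406% lower there. Opn1mw was at 5199 and 5017 CPM. Both Cadps2 and Gm17167 were chosen after their values were seen. Cadps2, which primes dense core vesicles, had no UMI in 278 WT cone-like cells and 98 UMIs in 68 of 542 rd10-vehicle cone-like cells (38.2 CPM), at least 4.18 on the log2 scale against a floor of 3 counts, and stood at 83.4 and 118.7 CPM in cluster 7 and 2.76 CPM in TMB cone-like cells. Gm17167, a predicted gene, had 98 UMIs in WT cone-like cells (68.8 CPM) and 0 in those of both rd10 libraries.

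The bipolar-like clusters had few restricted genes. In RBC-like cells Hmgb2, a chromatin protein, rose from 21.4 to 52.4 CPM. In cluster 7 Peg3, an imprinted gene, rose from 121.1 to 264.2 CPM and in cluster 8 Vax2os rose from 39.6 to 120.6 CPM. In ON cone bipolar-like cells 4 genes were lower and none higher, among them Rian, an imprinted non-coding RNA, from 105.3 to 32.2 CPM, and Pde6a, a rod gene, from 115.6 to 42.0 CPM. The cascade by which ON bipolar cells read glutamate had no calls in its own classes: 0 of 13 genes were called in RBC-like cells (median -0.08) and 0 of 12 in ON cone bipolar-like cells (median 0.19). So few of all genes were called in these clusters, 0.709% higher and 0.227% lower in the first and 0.261% and 0.957% in the second, that no call among so few genes says nothing particular about them. In the amacrine-like cluster Prom1 rose from 249.2 to 716.9 CPM and Gas6, a ligand of the TAM receptors, from 236.8 to 658.5 CPM, and Runx1t1 fell from 196.7 to 26.6 CPM. Ppp1r17, a phosphatase inhibitor that leads this cluster and was chosen after its values were seen, fell from 408 UMIs in 67 of 295 WT cells to 1 UMI in 62 rd10-vehicle cells, or 420.1 and 5.31 CPM. The rd10-vehicle side of this cluster holds 62 cells, so a subtype that was not sampled and a gene that was not transcribed cannot be told apart.

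The endothelial-like cluster held 159 of the 190 restricted lower genes. With cells of at most 10% mitochondrial UMIs it held 25, and its lower calls went from 306 to 75. With genes at 20% or more of their highest cluster it held 57, and its lower calls were 133. Car10, Kcnma1 and Klc3 were among those with the widest gap to the other classes. Car10 fell from 83.8 to 5.54 CPM and Kcnma1, a potassium channel, from 234.2 to 21.1 CPM, and Klc3, a kinesin light chain, had a log2 ratio of -3.50. Of 11 measured synapse genes 9 fell and none rose (median -2.44, all genes -0.01), where 4.72% of all genes were lower. The summed level of the 15 listed synapse genes fell from 1810 to 439.5 CPM. Of the cells, 56 of 137 WT cells and 15 of 156 rd10-vehicle cells had 10 or more UMIs of these genes. Of 13 measured genes of the blood-retinal barrier 0 were called and 10 were above 0 (median 0.20), where 1.5% of all genes were higher and 4.72% lower. The part of neuronal transcripts carried in WT droplets was not tested. Among the genes higher in this cluster, Gem, a small GTPase, rose from 17.2 to 38.2 CPM, and Tnfrsf1a, the TNF receptor, from 50.9 to 125.3 CPM, with 38.6 and 80.7 CPM in MG-like cells.

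Clusters 6 and 10 lost amacrine transcripts. In cluster 6, 8 of 8 measured amacrine genes fell (median -3.56, all genes 0.03), and in cluster 10, 6 of 6 (median -2.26, all genes 0.00), while in the amacrine-like cluster 1 of 6 fell (median 0.26). Of all genes 2.86%, 5.01% and 1.75% were lower in these clusters, in that order. Slc32a1, the vesicular transporter of GABA and glycine, fell from 138.3 to 4.37 CPM in cluster 6 and was at 327.4 and 440.8 CPM in amacrine-like cells. In cluster 6, 46 of 177 WT cells and 3 of 180 rd10-vehicle cells had 10 or more amacrine UMIs, and in cluster 10, 91 of 239 and 8 of 107 had. Fewer amacrine cells in these clusters and less amacrine RNA per cell cannot be told apart, and 11 and 10 of the restricted lower genes belonged to them. With clusters 6, 10 and 11 left out, the restricted lower genes numbered 20 in place of 190, and the restricted higher, shared higher and shared lower counts stayed within 1.5 times. The members changed more. In common were 16 of the 30 restricted higher and 9 of the 190 restricted lower genes, 5 of the 8 shared higher and 5 of the 8 shared lower genes.

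Transcripts of other classes differed between the libraries in most clusters. The 10 rod markers summed were lower in 7 of the 8 clusters other than the photoreceptor and MG-like ones, with the exception of cluster 7, where the log2 ratio was 0.01. In MG-like cells they were higher, at 800.9 and 1048 CPM. The lowest log2 ratio was -1.52 in endothelial-like cells, where they went from 521.4 to 181.2 CPM. In rod-like cells they stood at 36930 and 35000 CPM. The 13 amacrine markers were lower in 10 of 11 clusters, from 304.8 to 51.1 CPM in rod-like cells, and were at 5901 and 7122 CPM in amacrine-like cells. The 7 lens markers were at 0 to 4.94 CPM in WT and 14.96 to 89.5 CPM in rd10-vehicle in the 11 clusters. Haemoglobin was high in MG-like cells of the rd10-vehicle library, with 146.9 CPM of Hbb-bs against 0.30 CPM in WT, but 99.8% of those UMIs were in 1 cell. All 4 haemoglobin genes were also called higher in endothelial-like cells (median log2 ratio 2.44). The part of transcripts of other classes in each call was not tested.

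**Figure D5:**
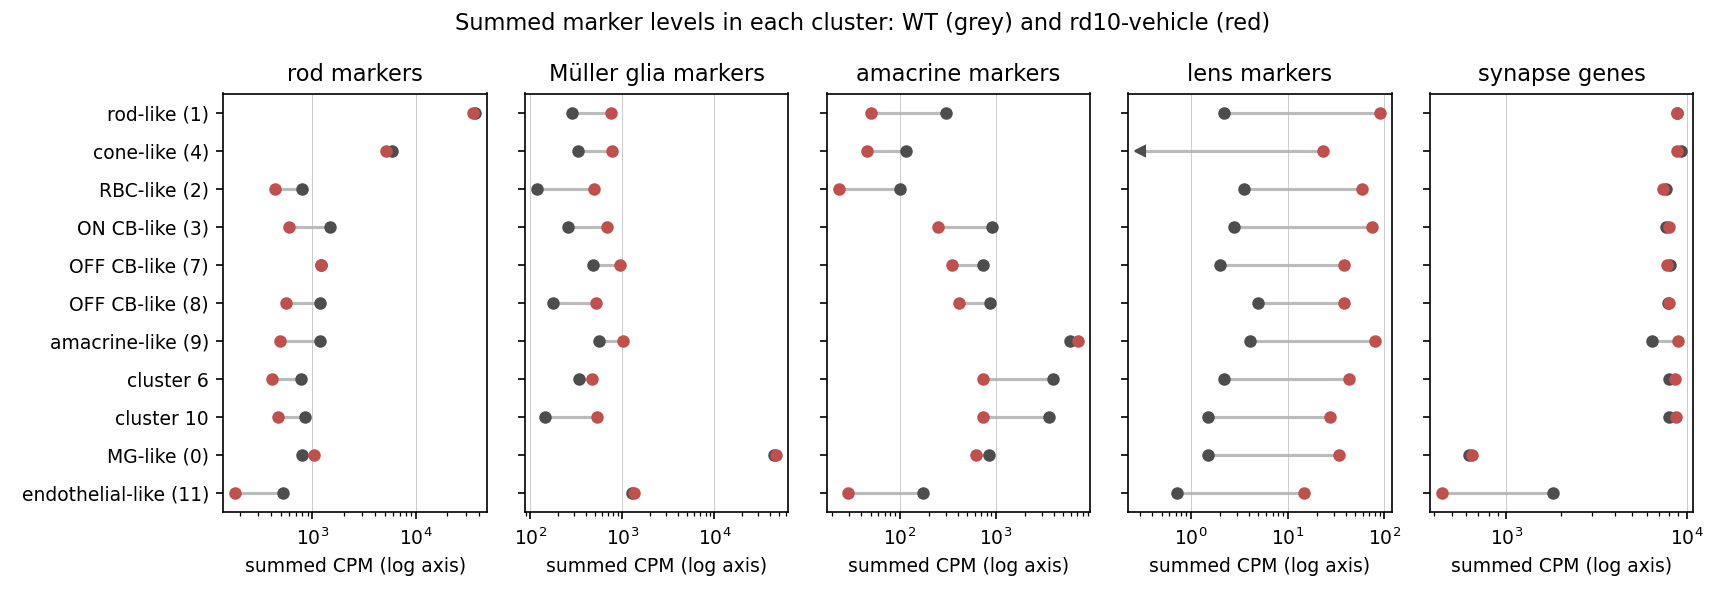
Summed level of rod, Müller glia, amacrine and lens markers and of the synapse genes in each cluster, in CPM on a log axis, in WT (grey) and rd10-vehicle (red), joined by a line (an arrow marks a level of 0). Lens markers were higher in rd10-vehicle in all 11 clusters, at 14.96 CPM in endothelial-like to 89.5 CPM in rod-like cells, and synapse genes fell in the endothelial-like cluster from 1810 to 439.5 CPM.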

How the data were processed

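Per the labels and the submitters' processing notes, the authors made single-cell libraries with 10x Genomics chemistry, aligned reads to mm10 with Cell Ranger 6.0.1 and processed cells in Seurat 3.2.2, with doublets removed before deposit. Values of the deposited matrix are on a natural log scale, the ln of 1 plus the UMIs in each 10000 of a cell, and the cell table deposited by the authors gives each cell's total UMI count, library and cluster. Counts were recovered from both, and 100% of entries came out whole within 0.001 UMI. No cell filter or doublet caller was added here. UMIs were summed per cluster and library. A gene was measured with at least 30 expected UMIs in each library, and called with a log2 CPM ratio (pseudocount 1 UMI) of at least 2-fold and an exact conditional 95% interval that excluded 1. Levels carry exact Poisson intervals. With 1 library per group no p-value was computed. A cluster name needed 3 markers at 2-fold and 20 CPM, 1 of them among its top 10 genes, and these names may differ from those of the study. Shared and class-restricted genes were named by number of calling clusters and by gap, 4 at most each way per class, with up to 4 genes for each of 30 gene lists. The members and lists were chosen with earlier results of these data known. Scripts ran in Python 3.11.15 with numpy 2.4.6, scipy 1.17.1 and pandas 2.3.3 and were tested on simulated data. Normalization, count minimum, pseudocount, cell depth, sex, mitochondrial share and own-level limits were varied. Some results, 1 of the shared lower genes among them, are not reported here.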

Additional observations from a re-analysis of the deposited data

Results flagged for a closer look

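These genes were called higher in one cluster and lower in another, and the difference between clusters was not tested. Slit2, an axon guidance ligand, had log2 ratios of rd10-vehicle to WT of -2.958 in ON cone bipolar-like cells, 1.456 in cluster 10 and -3.37 in endothelial-like cells. Cplx3, a complexin of ribbon synapses, stood at 1.283 in amacrine-like and -3.219 in endothelial-like cells. Mt1 was at 1.729 in MG-like, 2.911 in rod-like, 3.849 in cone-like, 1.44 and 2.208 in OFF cone bipolar-like cells of clusters 7 and 8 and -1.075 in cluster 10. Mir670hg was at -2.955 in cluster 6, 1.495 in amacrine-like cells, -1.128 in cluster 10 and -3.618 in endothelial-like cells. Thsd7a had 1.253 in cluster 10 and -3.623 in endothelial-like cells, and Lrtm1 had 1.106 and -3.345.

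Of the 10 clusters with too few cells to compare, 6 made up a larger share of the rd10-vehicle library than of WT, 4 of them with exact intervals that did not overlap. Astrocyte-like cells made up 1.478% of its cells against 0.4466% in WT, microglia-like cells 0.8737% against 0.134%, and the unnamed cluster 18 0.3864% against 0.067%. Lens-like cells made up 0.3024% against 0 of 4478 WT cells, which allows a share of up to 0.067% by the limit of 3 counts and has an exact upper bound of 0.0823%. The intervals are exact binomial 95% intervals and cover counting error only. Those of the RPE-like cluster, at 0.588% against 0.2903%, and of the unnamed cluster 20, at 0.1512% against 0 of 4478 WT cells, did overlap.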

How the results depend on the processing

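The counts are given as shared higher and lower, restricted higher and lower, and called gene and cluster pairs higher and lower, and were 8 and 8, 30 and 190, and 664 and 783 as reported. All 6 counts stayed within 1.5 times under a median-of-ratios size factor, without mitochondrial and ribosomal protein genes, with a pseudocount of 0.1 UMI and without the 5% of cells with the most UMIs. The following moved by more, and the cause was not tested. Thinning, stricter minimums and the settings that keep fewer cells also measured fewer genes. With WT cells limited by sex-linked transcripts, 6695 genes were measured in MG-like cells in place of 9162. With no count minimum, shared genes were 44 and 57, restricted higher genes 13 and pairs 3086 and 4633. With a minimum of 100, the counts were 1 and 3, 9 and 51, and 229 and 156. With WT cells limited to Xist-bearing ones free of Y-linked UMIs, shared lower genes were 2, restricted genes 16 and 43 and lower pairs 286. With each cell thinned to 1000 UMIs the counts were 3 and 4, 4 and 24, and 222 and 161, and with cluster sums thinned to the smallest 1 and 3, 5 and 13, and 181 and 164. With cells of at most 10% mitochondrial UMIs, shared genes were 3 and 4, restricted lower genes 57 and lower pairs 501. With genes at 20% or more of their highest cluster, shared genes were 0 and 3, restricted lower genes 90 and lower pairs 519. Both other alternatives were chosen after seeing the data: a 1.5-fold threshold gave 25 and 26 shared genes, 110 restricted lower genes and 2308 and 2601 pairs, and leaving out clusters 6, 10 and 11 gave 20 restricted lower genes and 242 lower pairs. Of the values of named genes, 127 moved out of their interval and 197 stayed in it with cells thinned to 1000 UMIs, 91 and 235 with the limited WT cells, and 3 and 323 under the median-of-ratios size factor. Of the list medians, 43, 26 and 10 moved under these settings. With cells thinned to 1000 UMIs, Rlbp1 and Guca1a changed sign in endothelial-like cells, to log2 ratios of 0.113 and 0.154. No paired analysis was possible because each group was 1 pooled library.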

Other observations

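AC149090.1 and Ccl27a are on no injury or cell type list used here, and both were chosen after their values were seen. AC149090.1 was called lower in 5 of 11 clusters, with log2 ratios from -2.22 to -0.66 over the 11. Ccl27a, a chemokine gene, was measured in 3 clusters and fell from 55.5 CPM in WT to 0 in RBC-like cells, a log2 ratio of at most -5.60 against a floor of 3 counts, from 66.2 CPM to 0 in ON cone bipolar-like cells (at most -4.98), and from 47.9 to 9.91 CPM in MG-like cells.

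Of 100 genes within 20 Mb of Pde6b that were measured in 5 or more clusters, 9 were called in at least 1 cluster (9.0%), beside 578 of 5036 genes (11.48%) in all, and 0 of the 100 were shared.

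Other classes were present in too few cells for a comparison of genes. The amacrine-like cells of cluster 5 made up 10.29% of WT cells (461) and 0.7224% of rd10-vehicle cells (43), ganglion-like cells made up 0.8263% (37) and 0.0504% (3), and horizontal-like cells made up 0.402% (18) and 0.0672% (4).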
